A study of Rattus norvegicus with 8 samples.

Results

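The unloaded scar of the rat medial collateral ligament, the band on the inner side of the knee, was compared with sham-operated ligament under normal weight bearing. The 2 arrays titled unloaded healing were set against the 2 titled loaded control, 4 of the 8 arrays of the series, over all 8740 probe sets that are not array controls. Unloaded healing rats had the ligament disrupted on both sides, and tail suspension, which takes weight off the hindlimbs, began 24 hours after surgery. Loaded control rats had sham surgery and bore weight. In both groups the ligaments were dissected at 3 weeks, and total RNA was measured. Strain, age and sex are not given in the labels, nor is it stated whether the 2 arrays of a group are separate animals, pools or repeats of 1 sample. The p-values therefore measure the spread between these arrays, which may be technical. Injury and unloading both differ between the 2 groups, so their parts cannot be told apart here. The loaded healing arrays, from rats with the same injury and normal weight bearing, are quoted beside the same genes. The unloaded control arrays, from rats that had tail suspension and no sham surgery, entered the estimate of the spread. They are shown for 6 probe sets and also quoted for Lcn2.

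A ligament is mostly type I collagen laid down by fibroblasts, with small proteoglycans that govern how fibrils form. After a tear, blood fills the gap, macrophages clear debris, fibroblasts deposit a matrix richer in fibronectin and type III collagen, and proteases and their inhibitors remodel it over weeks. Mechanical load is known to affect how much collagen ligament and tendon fibroblasts make. Blood and neighbouring skeletal muscle can both be present in dissected tissue. The arrays measured whole tissue, so fewer cells of a type and less RNA per cell cannot be told apart.

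Of the 5244 probe sets bright enough to test, 4 passed an adjusted p of 0.05 (limma, Benjamini-Hochberg), 3 of them higher and 1 lower in the unloaded scar. That was 0.0763% of those tested. The higher ones were a myosin heavy chain probe set and 2 beta-globin probe sets, and the lower one was Polr3a, the largest subunit of RNA polymerase III. No collagen, protease or macrophage probe set passed. At an unadjusted p under 0.05 there were 291 probe sets, against 262 that chance alone would give. In the same fit, loaded healing against the same sham arrays called 106 probe sets (2.02%), and unloaded against loaded healing called 85 (1.62%). The calls rested on few arrays: without either loaded control array, or without unloaded healing array 2, 0 probe sets passed, with 307, 320 and 284 at an unadjusted p under 0.05 (without loaded control 2, loaded control 1 and unloaded healing 2). Without unloaded healing array 1, 6 passed, of which only the myosin probe set was shared.

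Beta-globin is the oxygen-carrying chain that fills red cells. Because the promoters of the 2 beta-globin genes read by single-gene probe sets can be compared directly, the 250 bases upstream of each start are shown, from RefSeq on GRCr8, minus strand, 5′ to 3′ along the gene. The window of Hbb-b1 is chr1:167643521-167643770 and that of Hbb is chr1:167663722-167663971. Capitals mark matches, on either strand, to 4 short motifs known from globin promoters, which are spelled out after the sequences.
Hbb-b1: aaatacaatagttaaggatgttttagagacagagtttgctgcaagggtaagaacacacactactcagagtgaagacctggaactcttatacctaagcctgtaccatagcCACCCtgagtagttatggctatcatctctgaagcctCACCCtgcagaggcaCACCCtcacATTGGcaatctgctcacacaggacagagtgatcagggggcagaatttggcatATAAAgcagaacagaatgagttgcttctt
Hbb: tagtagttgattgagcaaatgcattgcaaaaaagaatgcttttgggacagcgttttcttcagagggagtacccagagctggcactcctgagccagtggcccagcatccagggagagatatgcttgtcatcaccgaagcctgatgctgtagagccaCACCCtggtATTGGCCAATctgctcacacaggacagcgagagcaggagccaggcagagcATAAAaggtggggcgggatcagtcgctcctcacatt
CACCC matched 3 times in Hbb-b1 and 1 time in Hbb, against 49.2% of 33469 promoter windows of the same length with at least 1 match. CCAAT matched 1 time in Hbb-b1, on the opposite strand (read as ATTGG), and in Hbb 1 time on each strand, against 34% of windows. ATAAA matched 1 time in each, against 39.3%. GATAA had 0 matches in either, against 23.5%. These are matches of letters, not measured binding.

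Globin transcripts were higher in the unloaded scar. Hbb-b1 read 732 and 903.3 on the 2 sham arrays and 3665.8 and 3135.8 on the 2 unloaded scar arrays, in units of linear signal. Both scar arrays stood above both sham arrays, by 2.00 ± 0.26 (SE, n = 2 per group) on the log2(signal + 45.8) scale used throughout. The difference passed (limma, adjusted p = 0.0445), with a 95% interval of 1.42 to 2.58. The probe set rc_AI179576_s_at, which the probe table assigns to 4 beta-globin genes together, read 5553.9 and 4215.1 in sham and 19371.2 and 14435.6 in the scar. It rose by 1.78 ± 0.24 (limma, adjusted p = 0.0445). Hbb, the other beta-globin gene shown above, read 850.4 and 585.5 in sham and 2566.7 and 2631.3 in the scar. Its difference was 1.81 ± 0.31 and did not pass (limma, adjusted p = 0.105). Beta-globin messages are near-identical and can bind each other's probes, so these probe sets are not independent.

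The alpha-globin chain pairs with beta-globin. X56325mRNA_s_at, assigned to 2 alpha-globin genes together, read 715.4 and 965.3 in sham and 2374.4 and 2358.4 in the scar, a difference of 1.46 ± 0.32 that did not pass (limma, adjusted p = 0.3205). Hba-a3 had 191.2 and 232.2 against 382.6 and 471.5, which is 0.88 ± 0.44 (limma, adjusted p = 0.911). In both, the scar arrays lay above the sham arrays. Other red cell genes had smaller differences, apart from the globin Hbg1. The groups overlapped for Slc4a1, the anion exchanger of the red cell membrane, on its brightest probe set at 0.16 (95% interval -0.49 to 0.82), and for Alas2, the erythroid enzyme that starts haem synthesis, at -0.20 (-1.97 to 1.58). The embryonic-type globins Hbe1 and Hbe2 also overlapped, at -0.42 and -0.33. Hbg1 lay above sham on its tested probe set, with 166.3 and 370.9 against 439.8 and 747.2. That difference was 1.06 ± 0.78 (limma, adjusted p = 0.953). Pf4, a platelet chemokine, read 864.8 and 993.4 against 1151.9 and 1563.3, a difference of 0.51 ± 0.28.

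Of the 12 blood and erythroid genes tested, 1 passed, Hbb-b1. In 4 of the 12 both scar arrays stood above both sham arrays and in 0 they stood below, where over all 3228 genes tested those shares were 17.4% and 14.6%. The median of the blood list was 0.22, against 0.01 over all genes. The loaded scar shared the sham arrays as its reference, and its own differences from sham were 1.14 for Hbb-b1 (limma, adjusted p = 0.0605) and 2.02 for rc_AI179576_s_at (limma, adjusted p = 0.00235). Between the 2 scars the Hbb-b1 difference of 0.86 did not pass (limma, adjusted p = 0.191). The summed signal of the 12 genes was 9147 and 6797 in sham, 12816 and 13120 in the unloaded scar and 12257 and 10431 in the loaded scar. The part of retained blood in these differences was not tested.

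**Figure D1:**
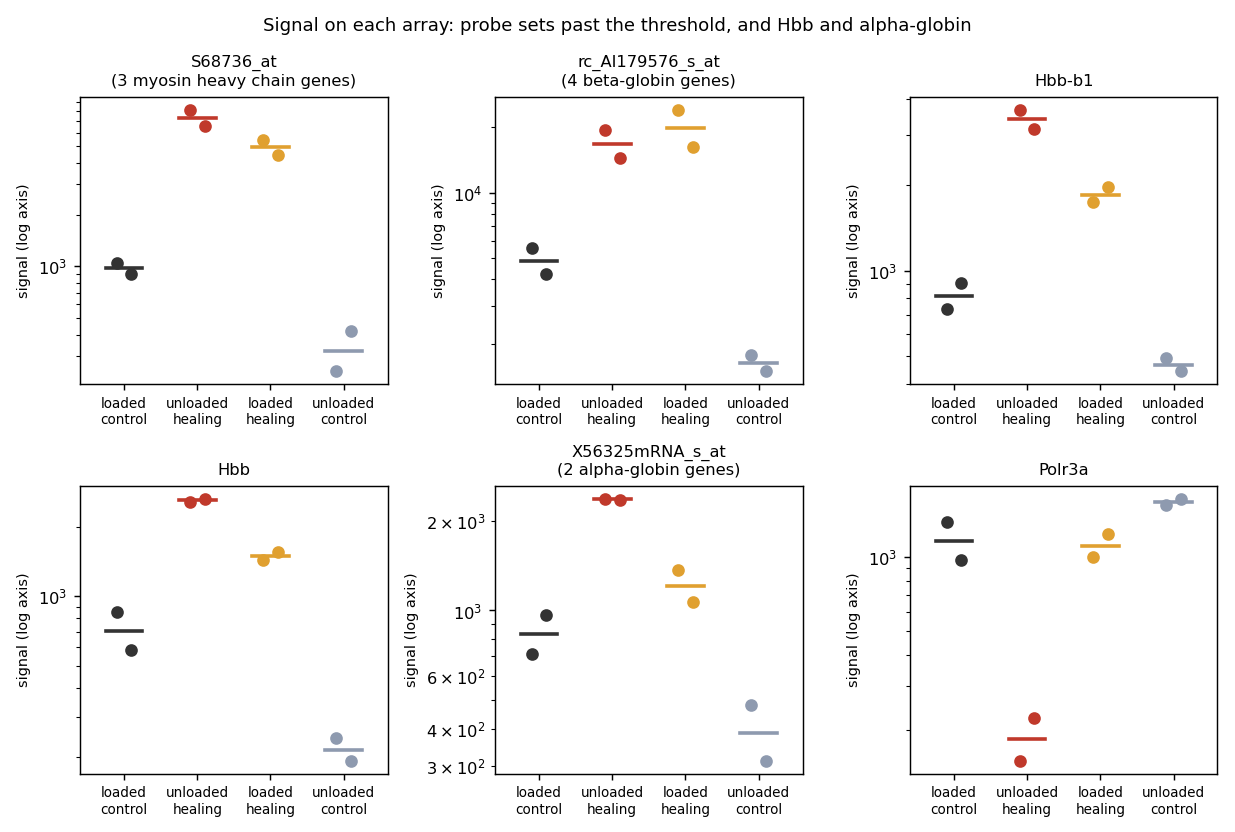
Signal on each of the 8 arrays (log axis, arbitrary units) for the 4 probe sets past the threshold and for Hbb and X56325mRNA_s_at; points are arrays and bars are geometric means of the 2 arrays of a group. The 2 unloaded healing arrays sit above both loaded controls in the myosin and globin panels, and for Polr3a they sit below all 6 other arrays.

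Muscle transcripts gave the largest difference in the comparison. S68736_at, which the probe table assigns to 3 myosin heavy chain genes together, the motor proteins of muscle, read 1049.5 and 902.7 in sham and 8151.4 and 6514.7 in the unloaded scar. The groups were far apart: it rose by 2.85 ± 0.28, or 7.2-fold with a 95% interval of 2.22 to 3.47 on the log2 scale (limma, adjusted p = 0.00816). The loaded scar had 5444.2 and 4461.5 on this probe set, 2.29 above the same sham arrays (limma, adjusted p = 0.00284). The unloaded controls had 244.6 and 420.9, the lowest of the 4 groups.

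Other myosin heavy chain probe sets did not share that size of difference. Myh4, the fast type IIb chain, read 3443.5 and 2492.4 in sham and 2068 and 2264.5 in the scar, below both sham arrays by -0.43 ± 0.26. Myh3, the embryonic chain that regenerating fibres make, read 5103.6 and 5374 against 8488.8 and 6878.9 on its brightest probe set, above both sham arrays by 0.54 ± 0.21. Its 2 other tested probe sets gave -0.14, below both sham arrays, and 0.05 with overlap. Myh1, the fast type IIx chain, overlapped, with 1661.4 and 1755.7 in sham and 2530.9 and 410.8 in the scar. Myh2 was too dim to be tested. None of these 3 tested genes passed (limma, adjusted p from 0.808 to 0.956).

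Several sarcomere and glucose-uptake genes stood higher in both scar arrays without passing. Acta1, the skeletal muscle actin, read 1164 and 1026 in sham and 2324 and 2170.6 in the scar, a difference of 1.01 ± 0.25 (limma, adjusted p = 0.3725). Tnnt3, fast troponin T, read 423.4 and 428.1 against 1026 and 910.1, which is 1.10 ± 0.34. Ldb3, a Z-disc protein, read 68.2 and 110 against 601.8 and 549.7, which is 2.22 ± 0.55. Slc2a4, the insulin-responsive glucose transporter of muscle and fat, read 184.6 and 213.1 against 953.6 and 565.1, which is 1.68 ± 0.40. Tcap, the titin cap of the Z-disc, had the largest difference among single-gene probe sets, with 68.1 and 120.7 against 1114.4 and 606.4, or 2.66 ± 0.56 (limma, adjusted p = 0.292).

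Genes of the neuromuscular junction and of calcium handling had lower or overlapping values. Chrna1, the acetylcholine receptor alpha subunit, stood lower, with 877.9 and 656.5 in sham and 332.4 and 284.4 in the scar, a difference of -1.19 ± 0.41. Atp2a1, the calcium pump of fast fibres, and Pvalb, a calcium buffer, overlapped at 0.20 and 0.04. Ckm, muscle creatine kinase, was above both sham arrays by 0.55 ± 0.26. Mylpf and Mb had no probe set of their own. Of the 37 muscle genes tested, 0 passed, while at an unadjusted p under 0.05 there were 5 higher and 1 lower, where 2.39% of all genes were higher and 2.91% lower. Both scar arrays lay above both sham arrays in 17 of the 37 and below in 5, where 17.4% of all genes lay above and 14.6% below. With spike-in scaling the first count was 12, where 275 of 3231 genes lay above. With median centring it was 13, where 449 of 3228 genes did. The list median was 0.24. The summed signal of the list was 50484 and 49424 in sham, 63070 and 56824 in the unloaded scar and 63595 and 58511 in the loaded scar. The part of adjacent muscle in these differences was not tested.

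Type I collagen transcripts were lower on both scar arrays, with none past the threshold. Col1a2, one of the 2 chains of type I collagen, read 13163.9 and 10798.7 in sham and 5118 and 4489.8 in the unloaded scar, a difference of -1.31 ± 0.19 with a 95% interval of -1.74 to -0.87. It missed the threshold narrowly (limma, adjusted p = 0.0603), and it passed with quantile normalization. Col1a1, the other chain, read 75948.8 and 59573.3 against 50509.5 and 34752.7 on its brightest probe set, a difference of -0.68 ± 0.20 (limma, adjusted p = 0.641). Its 3 other tested probe sets were also below sham on both arrays, by -0.60, -0.81 and -1.19. In the loaded scar Col1a2 was at 21950.2 and 16673.1, above sham. The direct difference of unloaded from loaded scar was -1.99 ± 0.19 (limma, adjusted p = 8.88e-04).

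The collagens that shape or accompany type I fibrils gave mixed values. Col5a1, which sets fibril diameter, read 1821 and 1751.2 in sham and 908.5 and 652.1 in the scar, a difference of -1.17 ± 0.31 (limma, adjusted p = 0.468). Col3a1, the collagen of early scar, read 3171.6 and 3207.6 against 2505.7 and 2634.2, below by -0.31 ± 0.23, and a dimmer probe set gave 0.02 with overlapping arrays. Col5a2 overlapped at -0.37, and Col12a1, a fibril-associated collagen, was above at 0.38. Of 22 collagens listed, 12 were on the array and 9 were tested: 0 passed, 3 were lower and 0 higher at an unadjusted p under 0.05, and 4 lay below and 1 above without overlap. Over all genes 2.91% were lower and 2.39% higher at that p, and 14.6% lay below and 17.4% above. The median of the collagens was -0.37. The summed signal of the 9 was 97459 and 78367 in sham, 61974 and 45222 in the unloaded scar and 119019 and 101532 in the loaded scar. Most of it was 1 Col1a1 probe set, with 75948.8 and 59573.3, 50509.5 and 34752.7, and 84665.6 and 73916 in the same order. On a dimmer Col1a1 probe set the loaded scar read 2132.1 and 1424.9 against 4230.3 and 3953.4 in sham. Another read 2339.8 and 1768.8 against 5327.7 and 5622.8, and the remaining tested one overlapped.

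Enzymes that finish and cross-link collagen varied in sign. Lox, the cross-linking lysyl oxidase, read 1644.6 and 1961.1 in sham and 758.1 and 1045.1 in the scar on its brightest probe set, a difference of -0.98 ± 0.31 (limma, adjusted p = 0.70). Another tested probe set of Lox gave -0.65, below both sham arrays. The dimmest tested one gave 0.70 above sham, so the sign of Lox depends on the probe set. Pcolce, which enhances procollagen cleavage, read 892.8 and 1235.9 against 1295.2 and 1338.3, a difference of 0.31 ± 0.46. The loaded scar had 151.1 and 126.3, and the unloaded scar stood above it by 2.89 ± 0.46 (limma, adjusted p = 0.0148). Of the 9 genes tested, 0 passed and the median was -0.09.

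The small proteoglycans and tendon glycoproteins were lower as well, again without passing. Fmod, fibromodulin, which binds collagen fibrils, read 2878.5 and 2624 in sham and 757.8 and 992.4 in the scar, a difference of -1.61 ± 0.36 (95% interval -2.42 to -0.80, limma, adjusted p = 0.3205). Comp, a pentameric glycoprotein of loaded tendon and cartilage, read 1859.8 and 2505.5 against 524 and 536, which is -1.94 ± 0.45 (limma, adjusted p = 0.333). In the loaded scar Comp was also low, at 223.2 and 360.8. Sparc, a collagen-binding matricellular protein, read 37960.1 and 38169.5 against 25748.2 and 19466.5, which is -0.76 ± 0.17, and its other tested probe sets had the same sign. Dcn, decorin, read 5285.4 and 3470.4 against 2108.6 and 2883.8, which is -0.79 ± 0.32, and a dimmer probe set overlapped at -0.02. Bgn, biglycan, was lower by a smaller amount, -0.29 ± 0.25, and Thbs4, a tendon thrombospondin, by -0.69 ± 0.35.

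Provisional matrix genes of the wound lay on either side of sham, none past the threshold. Fn1, fibronectin, read 2208.6 and 2244.2 in sham and 1705.4 and 1289.3 in the unloaded scar, below by -0.57 ± 0.25, where the loaded scar had 6587.2 and 5062.1. A dimmer Fn1 probe set overlapped at 0.67. Spp1, osteopontin, which macrophages and bone cells secrete, read 407 and 453.7 in sham, 721.1 and 536.2 in the unloaded scar and 11380.1 and 7321.8 in the loaded scar. Both unloaded scar arrays were above sham for Spp1, and the difference was 0.49 ± 0.33, with a 95% interval of -0.24 to 1.22, against 4.27 in the loaded scar. Lama3, a basement membrane laminin chain, was highest of the list at 1.60 ± 0.66, and Ncan, a proteoglycan known from brain, was at -1.58 ± 0.70. Of 33 proteoglycans and glycoproteins tested, 0 passed, 13 lay below and 6 above without overlap (14.6% and 17.4% of all genes), and the median was -0.08. At an unadjusted p under 0.05, 6 were lower and 1 higher (2.91% and 2.39% of all genes).

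The fibroblast marker list overlaps the matrix lists, and shows the same genes from the side of the cell. Of 17 genes listed, 11 were on the array and tested. None of the 11 passed, 7 were lower at an unadjusted p under 0.05 (2.91% of all genes), and 8 lay below sham without overlap (14.6% of all genes). The median was -0.79, while the loaded scar had a median of 0.23 against the same sham arrays. Thy1, a surface protein of fibroblasts, read 1717.1 and 1790.8 in sham and 569.1 and 597.8 in the scar, which is -1.52 ± 0.31 (limma, adjusted p = 0.292). Egr1, a load-responsive factor of tendon cells, Tnc, tenascin C, and Pdgfra overlapped at 0.29, 0.08 and -0.03. The summed signal was 107948 and 89622 in sham, 65938 and 51976 in the unloaded scar. Most of it was again Col1a1, with 75948.8 and 59573.3 in sham and 50509.5 and 34752.7 in the unloaded scar. Of the list, Col1a1, Col1a2, Dcn and Fmod lay among the brighter signals of both sham arrays, with a lowest value of 2624. Other markers of the list, such as Pdgfra and Lox, were dimmer. Lep, of the adipocyte list, read 11690.9 and 8952.1 in sham, so brightness is no check of the labelled tissue. The tendon-defining genes Tnmd, Scx and Mkx had no probe set of their own.

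**Figure D2:**
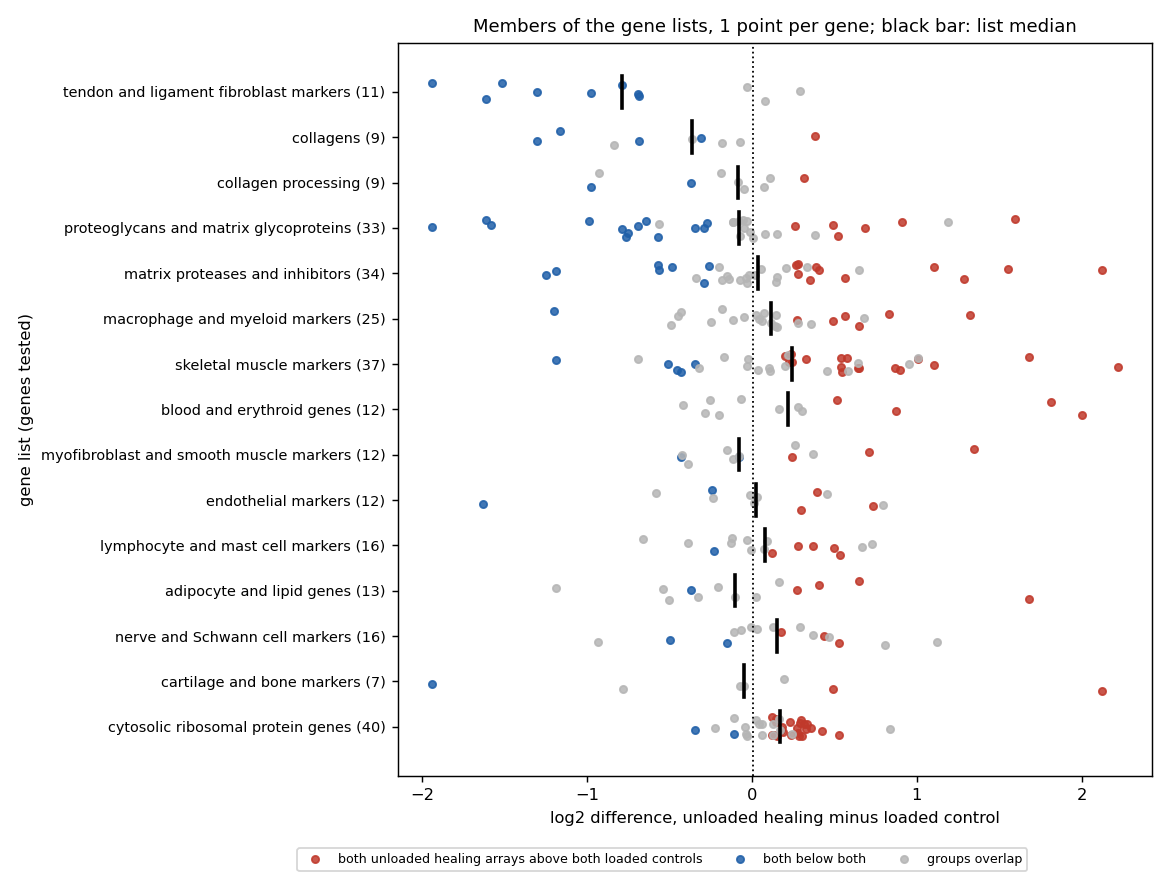
Log2 difference, unloaded healing minus loaded control, of every tested gene of 15 gene lists, 1 point per gene, with the list median as a black bar and the median of all genes (0.01) as a dotted line; red and blue points are genes whose 2 groups do not overlap. The fibroblast marker list has its median at -0.79 and the muscle list at 0.24, and most list medians lie near the dotted line.

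Ctsk, Adam10, Mmp12 and Mmp13 stood above sham on both scar arrays with differences over 1 log2 unit, none past the threshold. Ctsk, cathepsin K, which cleaves fibrillar collagen, read 356.3 and 147.5 in sham and 1045.6 and 1300.7 in the unloaded scar. The arrays did not overlap, and the difference of 2.12 ± 0.49 did not pass (95% interval 1.03 to 3.21, limma, adjusted p = 0.333). The loaded scar had 2076.4 and 1317.2. Mmp12, macrophage elastase, read 350.4 and 157.4 against 569 and 561.1, a difference of 1.11 ± 0.44 (limma, adjusted p = 0.808). It was at 4904.1 and 3319.1 in the loaded scar, and the 2 scars differed by -2.74 ± 0.44 (limma, adjusted p = 0.0148). Mmp13, a collagenase, read 16 and 156.5 in sham and 195.3 and 263.5 in the scar, which is 1.29 ± 0.63 with a wide interval of -0.12 to 2.70. Adam10, a membrane sheddase, was at 58.8 and 117.8 against 328.9 and 345.5, which is 1.55 ± 0.53.

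The other proteases and the inhibitors stayed within about 1 log2 unit of sham, apart from Plat and Mmp23. Mmp2, gelatinase A, read 796.9 and 942.7 against 821.8 and 1128.6 and overlapped, at 0.15 ± 0.35. Mmp3, stromelysin, was above by 0.28 ± 0.29. The inhibitors Timp1 and Timp2 lay below sham by -0.29 ± 0.24 and -0.26 ± 0.33, and Timp3 overlapped at -0.02. Among lysosomal cathepsins Ctss, made by antigen-presenting cells, was above at 0.57 ± 0.27, Ctsb and Ctsd were below at -0.49 and -0.56, and Ctsl overlapped at 0.05. Plat, the tissue plasminogen activator, had the lowest value of the list, -1.25 ± 0.59. Of 34 genes tested, 0 passed, and 3 were higher and 0 lower at an unadjusted p under 0.05 (2.39% and 2.91% of all genes). Without overlap 11 lay above and 7 below (17.4% and 14.6% of all genes), and the median was 0.04. With spike-in scaling the median was -0.06 and with median centring -0.01, so no direction is given for the list.

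No macrophage marker in the unloaded scar passed against sham. Lyz2, lysozyme, read 2144.3 and 1391.7 in sham and 2422.4 and 2465.7 in the unloaded scar, above by 0.49 ± 0.24 (95% interval -0.05 to 1.03). The loaded scar had 16260.4 and 13978, and the 2 scars differed by -2.60 ± 0.24 (limma, adjusted p = 6.89e-04). Apoe, which lipid-laden macrophages make, read 6286.9 and 5666.7 against 9925.6 and 8843.1, which is 0.65 ± 0.24 (limma, adjusted p = 0.804). Lgals3, galectin-3, was above by 0.27 ± 0.28.

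Class II antigen presentation genes gave values that depended on the gene and the probe set. RT1-Da, a class II alpha chain, read 2055.3 and 1621.2 in sham and 1803.4 and 2050.8 in the scar, a difference of 0.07 with a 95% interval of -0.44 to 0.58, where the loaded scar had 8039.9 and 6385.8. A dimmer RT1-Da probe set lay above both sham arrays, with 596.4 and 671.8 against 870.6 and 827.8. RT1-Bb, a class II beta chain, also lay above on its named probe set, with 206.6 and 385.8 against 571.7 and 512.3, or 0.83 ± 0.44, and overlapped at -0.31 on another. Cd74, the invariant chain, was at 0.04 on its brightest probe set and at -1.57 ± 0.69 on another, which read 679.1 and 685.9 in sham and 514 and 61.9 in the scar, below both. Ptprc, the pan-leukocyte CD45, overlapped at -0.43 on its only tested probe set. One too dim to be tested lay above sham, with 16.9 and 14.6 against 229.1 and 183.6. It read 522.2 and 542.5 in the loaded scar. Another untested Ptprc probe set overlapped at 0.02. Fcgr2b, an inhibitory antibody receptor, had 1.32 ± 0.72, and the chemokine Ccl4 had -1.20 ± 0.63. Of 49 macrophage genes listed, 31 were on the array and 25 tested: 0 passed, 6 lay above and 1 below, and 18 overlapped, where 17.4% of all genes lay above, 14.6% below and 2196 of 3228 overlapped. The median was 0.12. With spike-in scaling 2 lay above and 3 below, where 275 of 3231 genes lay above and 580 below. The summed signal was 24866 and 23805 in sham, 28863 and 29249 in the unloaded scar and 68631 and 61893 in the loaded scar. Cd68 had no probe set of its own.

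**Figure D3:**
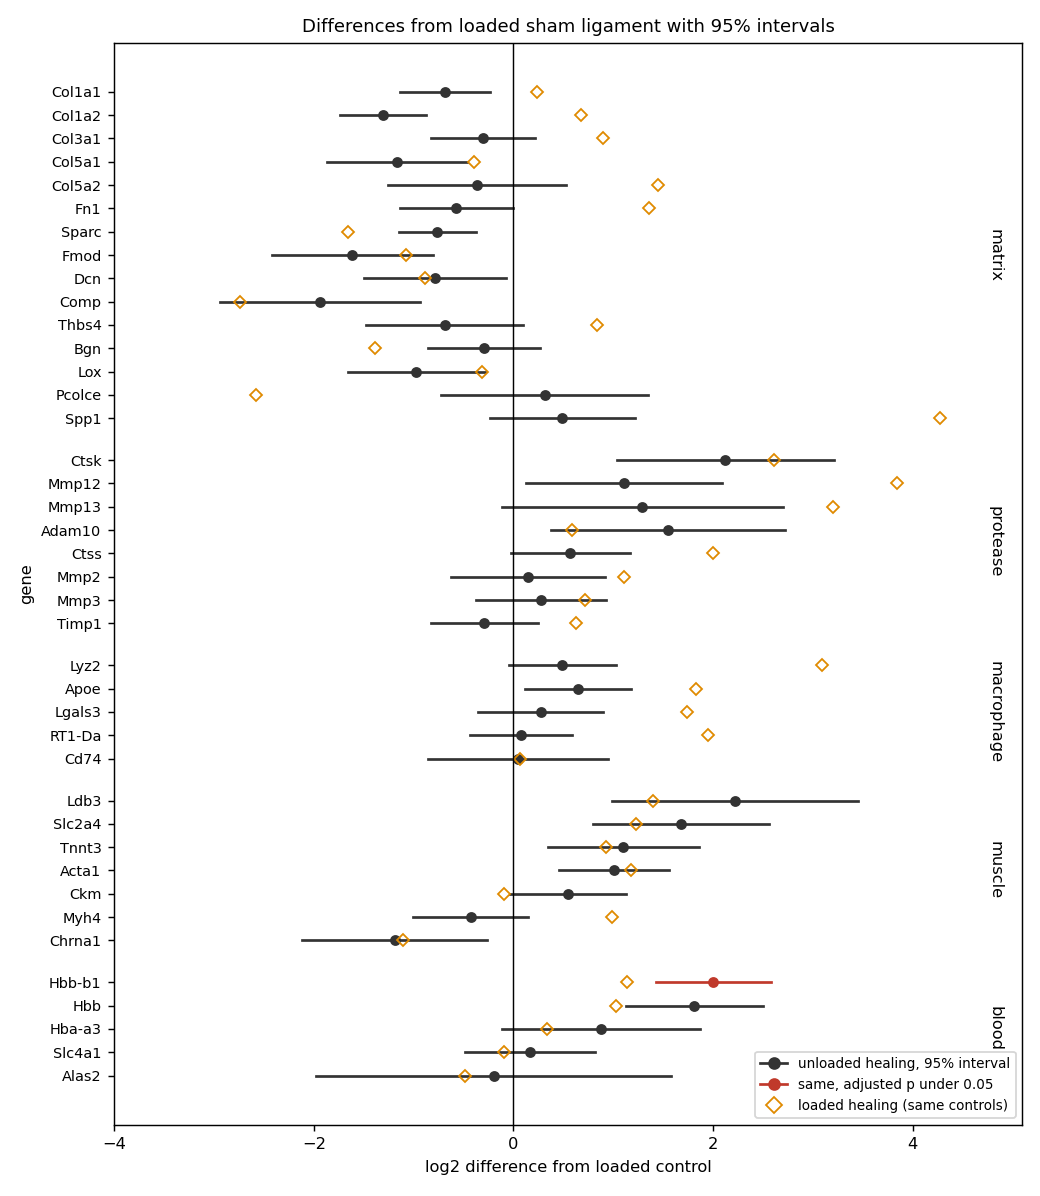
Log2 difference from loaded control of 40 named genes: filled points with bars are unloaded healing with 95% intervals (red where adjusted p is under 0.05), and open diamonds are loaded healing against the same 2 control arrays. Lyz2, at 0.49, has an interval from -0.05 to 1.03 while its diamond stands at 3.09, and Col1a2 has its interval wholly below 0 and its diamond above 0.

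Polr3a, which makes transfer RNA and other small RNAs, was the only probe set that passed in the lower direction. It read 1381.3 and 966.1 in sham and 150.4 and 224.3 in the unloaded scar, a difference of -2.38 ± 0.34 (95% interval -3.13 to -1.63, limma, adjusted p = 0.0477). The loaded scar had 992.9 and 1236.1, within the range of sham, and the 2 scars differed by -2.33 ± 0.34 (limma, adjusted p = 0.00838). With an adjusted p this close to 0.05 it is the weakest of the 4 calls, and it passed under 6 of the 18 alternative settings.

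The remaining largest single-gene differences did not pass. Higher in the scar were Pglyrp1, a neutrophil peptidoglycan receptor, at 2.43 ± 0.53, and Lcn2, a neutrophil iron-binding lipocalin, at 2.08 ± 0.53. Lcn2 read 89.1 and 71.1 in sham, 493.8 and 474.1 in the unloaded scar and 117 and 75.2 in the loaded scar. The unloaded controls read 410.9 and 276.1 for Lcn2, also above sham. Dio2, which activates thyroid hormone, was at 2.17 ± 0.53, Ndufb9, a subunit of respiratory complex I, at 2.10 ± 0.56, Plpp2, a lipid phosphatase, at 2.03 ± 0.54, and Cnksr2, a scaffold protein, at 2.18 ± 0.55. Another tested probe set of Plpp2 gave 0.31, and a brighter one of Cnksr2 gave 0.36. Lower were Crispld2, a secreted glycoprotein, at -2.44 ± 0.63, B3gat1, which makes the HNK-1 sugar, at -2.04 ± 0.60, Rnmt, the mRNA cap methyltransferase, at -1.88 ± 0.68, Mrpl38, a mitochondrial ribosomal protein, at -1.88 ± 0.76, and Ly6c, a surface protein of leukocytes, at -1.84 ± 0.41.

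For 3 of the lowest, other tested probe sets of the gene differed. Pacs1, a sorting protein, was at -2.57 ± 0.72 on one probe set and at -0.25 and 0.02 with overlapping arrays on 2 brighter ones. Igfbp2, a binding protein of insulin-like growth factors, was at -2.21 ± 0.59 on one and at 0.84 on another. Eef2, the translation elongation factor, was at -1.95 ± 0.47 on one, and the others lay between -0.51 and 0.12. Nos3, the endothelial nitric oxide synthase, read 908.6 and 976.7 against 295.1 and 253, which is -1.63 ± 0.31 (limma, adjusted p = 0.195), while 2 other probe sets of Nos3 had the opposite sign. Probe sets too dim to be tested had the opposite sign for Mrpl38, at 0.54, and Ncan, at 0.50. For Ldb3 one such probe set was at -0.49 and another at 0.83.

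Lists of other cell types had 0 members past the threshold. Their medians were -0.08 for 12 myofibroblast and smooth muscle genes, 0.02 for 12 endothelial genes, 0.08 for 16 lymphocyte and mast cell genes, -0.10 for 13 adipocyte genes, 0.15 for 16 nerve genes and -0.05 for 7 cartilage and bone genes. Of 40 ribosomal protein genes, 23 lay above sham without overlap and 2 below (17.4% and 14.6% of all genes), with a median of 0.17. That count depended on scaling, with 18 above under quantile normalization, 9 under median centring and 2 under spike-in scaling. Over all genes the counts above under these settings were 541, 449 and 275, against 562 with the scaling used.

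The sizes that this design could miss were large. The 95% interval of a log2 difference reached a median of 1.12 to each side (2.17-fold), and between 0.80 and 1.38 in the middle 50% of probe sets. To pass, a probe set with the median error would have needed a difference of 3.55 log2 units, or 11.7-fold, with 4 passing as here. That size is set partly by how many other probe sets pass. It was 2.21 (4.62-fold) for the median of the 1748 brightest probe sets, 3.52 for the 1748 in between and 4.45 (21.9-fold) for the 1748 dimmest. A difference of 2-fold would have sufficed for 8 of 5244 probe sets (0.153%) and one of 4-fold for 613 (11.7%).

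Read the other way, the intervals set bounds on what was measured. They lay wholly within 2-fold of sham for 1153 probe sets (22%) and wholly within 4-fold for 4007 (76.4%), so for the other 1237 (23.6%) a change beyond 4-fold was not excluded. Among the brightest 1748 the first share was 58.4%, and among the dimmest it was 0%. By list, intervals wholly within 2-fold were held by 2 of 9 collagens, 10 of 34 proteases, 9 of 25 macrophage genes, 8 of 37 muscle genes, 1 of 12 blood genes and 32 of 40 ribosomal genes. Within 4-fold they were held by 9, 28, 22, 28, 10 and 39 of the same lists. Measured differences were mostly small beside these limits, with a median size of 0.32 log2 units, and 495 probe sets (9.44%) differed by more than 1, 242 higher and 253 lower. The 3496 probe sets left out as too dim ranged from -2.36 to 2.77, with 209 higher and 178 lower by more than 1, and 0 of them passed when all were tested, where the smallest adjusted p among them was 0.303 (limma).

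**Figure D4:**
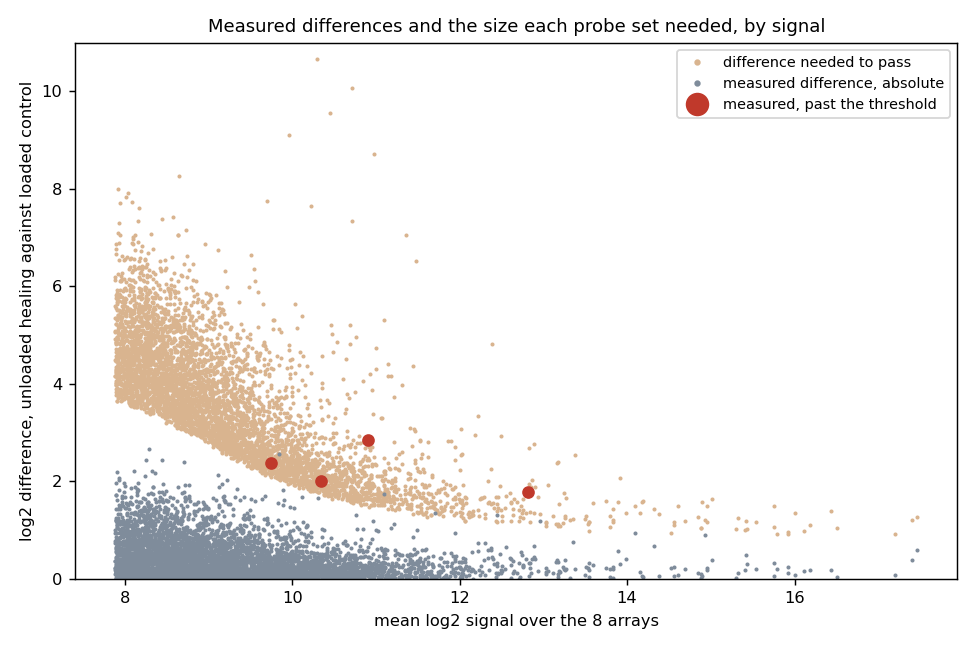
For each of 5244 probe sets, the absolute log2 difference between unloaded healing and loaded control (grey) and the difference it would have needed to pass (tan), against its mean log2 signal over the 8 arrays; red points are the 4 that passed. The needed size falls with signal, from a median of 4.45 in the dimmest 1748 probe sets to 2.21 in the brightest 1748.

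The spread between arrays of a group was as wide as between groups. Over the tested probe sets the 2 sham arrays correlated at 0.825 and the 2 unloaded scar arrays at 0.806, and array pairs across the groups at 0.795 to 0.872. Between the 2 sham arrays 20.8% of probe sets differed by more than 1 log2 unit, between the 2 scar arrays 22.9%, and across the groups 16.4% to 24.6%. The unloaded controls stood apart, with correlations of 0.492 to 0.608 with the other 6 arrays. Without them 1 probe set passed, S68736_at. The hybridisation control BioB-M read 761 on unloaded healing array 2 and 27208.1 on array 1, and its part in the results was not tested.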

How the data were processed

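RNA of 8 ligament samples, 2 in each of 4 groups, was measured on 1-colour oligonucleotide arrays. The authors deposited 1 linear intensity for each of 8799 probe sets on each array. They had been scaled, since the 2% trimmed mean was 500.3 to 500.6 on every array. The summarising software was not given in the sources used here. Every one of the 8 columns entered the fit, with 0 left out, and the number of arrays limits the precision.

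The 59 control probe sets were set aside, 45.8 (the 10th percentile) was added before log2, which shrinks folds of dim probe sets, and the dimmest 40% by mean over 8 arrays were removed. limma 3.58.1 in R 4.3.3 fitted 1 mean per group with intensity-trended empirical Bayes (4 residual and 5.81 prior degrees of freedom). Tests were two-sided, with Benjamini-Hochberg adjustment over 5244 probe sets at 0.05. Intervals are 95%, per probe set. The needed size is the SE times the t value at the largest p that passed. The fit was tested on simulated data.

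Of all probe sets 7018 had 1 symbol, 308 several and 1473 none; 6994 matched GRCr8 by Entrez identifier, with 0 symbols changed. Genes (3228) were counted by their brightest probe set. Genes were named by a rule: every probe set past the threshold, the 10 highest and 10 lowest non-overlapping single-symbol differences, and set anchor genes. The rule also took the 4 largest non-overlapping differences of each main list and up to 2 of each other list. Myh1, Myh3, Hbe1, Hbe2, Hbg1, X56325mRNA_s_at, Thy1, Egr1, Tnc, Pdgfra, Mmp23 and other probe sets of named genes lay outside the rule. They were added after their values were seen. Members and lists were chosen with earlier results of these data known. The 18 alternatives covered scaling, offset, filter, variance prior, arrays used, probe set averaging, replicate block and leaving out arrays.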

Additional observations from a re-analysis of the deposited data

Results flagged for a closer look

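Of the 85 probe sets named by the rule, 15 differed between the unloaded and loaded scars in the direct test. Differences are unloaded minus loaded healing (limma, log2, n = 2 arrays each). Over all tested probe sets 1.62% differed, and the lists and anchors were chosen with earlier results of these data known. Lower in the unloaded scar were Spp1 by -3.78 ± 0.33 (adjusted p = 5.18e-04), Mmp12 by -2.74 ± 0.44, Lyz2 by -2.60 ± 0.24, Polr3a by -2.33 ± 0.34 and Col1a2 by -1.99 ± 0.19. Also lower were Fn1 by -1.93 ± 0.25, RT1-Da by -1.87 ± 0.23, Nos3 by -1.49 ± 0.31, Lgals3 by -1.46 ± 0.28, Ctss by -1.43 ± 0.27, Myh4 by -1.42 ± 0.26, Col3a1 by -1.20 ± 0.23 and Apoe by -1.18 ± 0.24. Higher in the unloaded scar were Pcolce by 2.89 ± 0.46 and Sparc by 0.90 ± 0.17. The adjusted p (limma) of these 15 ran from 5.18e-04 to 0.0439. Of the 15, Polr3a alone also passed against sham. Thy1, quoted above but outside the rule, was also lower in the unloaded scar, by -2.66 ± 0.31 (limma, adjusted p = 0.00248). Some signs depended on the probe set. On another tested one, Sparc read 3825 and 3516.8 in the unloaded and 5646.6 and 5198.2 in the loaded scar. Apoe read 1039.9 and 1043.6 against 462.7 and 395.2. Col3a1 read 1036.1 and 2022 against 874.5 and 872.4, and Nos3 274.8 and 288.8 against 44.3 and 110.2. Further tested probe sets kept the sign for Sparc and RT1-Da and overlapped for Nos3 and Fn1.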

How the results depend on the processing

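The count of called probe sets was 4 with the settings used. It was 6 (3 higher, 3 lower) with quantile normalization, 1 with median centring and 1 with spike-in scaling. It was 1 without a filter, 1 with the compared arrays alone, 1 without the unloaded controls and 0 without the intensity trend, where 300 probe sets had an unadjusted p under 0.05 and the smallest adjusted p was 0.291 (limma). It was 3 with the filter from the compared arrays, 3 with the larger offset, 4 with a floor, the 60% filter or the robust prior, and 5 with probe sets averaged per gene. Leaving out 1 array gave 0 to 6. Replicate numbers are shared by the groups but the labels do not say that they pair samples. The array 1 minus array 2 differences of the 2 groups correlated at 0.18 across probe sets, and with the number as a replicate block 7 passed, adding Col1a1, Col1a2 and Pmepa1. S68736_at passed under 14 of 18 alternatives, Hbb-b1 and rc_AI179576_s_at under 8 each, Polr3a under 6 and Col1a2 under 3, each with the same sign in 18. The causes were not tested. The median reach of the interval ran from 0.82 with the larger offset to 1.36 with an array left out. No named difference past the threshold changed sign.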
